A study of Mus musculus with 2 samples.

Results

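ATF4 is a basic leucine zipper transcription factor whose mRNA is translated more efficiently when the kinases of the integrated stress response phosphorylate eIF2 alpha, and its best known targets are genes of amino acid synthesis, amino acid transport and tRNA charging. 7 genes with strong ATF4 peaks and no role in amino acid metabolism are described here: Wls, Ppp2r5a, Bud31, Ensa, Ran, Kifc1 and Klhdc3. They were selected on the measured peak values. Peaks were counted as gene-end peaks when the summit was no more than 1 kb from either end of a protein-coding gene, and among these the 7 genes held the highest fold enrichments once tRNA synthetase and translation factor genes were left out. The 7 are part of 1780 protein-coding genes with a gene-end peak, which is 8.13% of the 21887 in the gene table.

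The proteins of these genes have no single pathway in common. WLS is a membrane protein that escorts lipid-modified Wnt ligands to the cell surface. PPP2R5A is a B56 regulatory subunit of the phosphatase PP2A, and ENSA becomes an inhibitor of PP2A with a B55 subunit after phosphorylation by the Greatwall kinase. BUD31 is a component of the spliceosome. RAN is the small GTPase that gives nuclear transport its direction, KIFC1 is a minus-end-directed kinesin of the mitotic spindle, and KLHDC3 is a kelch-domain substrate receptor of CUL2 ubiquitin ligases that reads the C-terminal residues of proteins.

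The peaks came from CUT&Tag, in which an antibody directs a transposase to the DNA around a protein and the fragments it releases are read. Primary neurons of cortex and hippocampus were taken late in gestation from C57BL/6 mouse embryos with no transgene or mutation named, and gave 2 libraries, 1 with an ATF4 antibody and 1 with IgG. The labels and methods name no treatment for these neurons. The ATF4 peak list held 7873 peaks. No peak list of the library made with IgG was used here. The sources do not state whether that library served as the control when peaks were called, so it is unknown whether the fold enrichments below are relative to IgG. None of the values has a replicate error, and no cell type marker could be checked.

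Upstream of 3 of the 7 genes, Bud31, Kifc1 and Klhdc3, the same 8-base word lay next to the peak summit. Because ATF4 pairs with C/EBP proteins on a composite element, the words TGATGNAA, TGATGCAA, TGANGNAA (N is any base), the cAMP response element TGACGTCA and, after the sequences had been seen, TGACGCAA were searched on both strands of the promoter windows of RefSeq (GRCm38.p6), which run from 250 bases before to 50 bases after each listed start. TGANGNAA contains the matches of TGATGNAA, TGATGCAA and TGACGCAA. All 7 members matched to a window. The stretches below are those around the word TGANGNAA in the 4 members that held it, with up to 75 bases on each side but ending before the gene start, 5′ to 3′ on the strand of the gene, with the match in capitals.
Bud31 (chr5:145140251-145140375, plus strand): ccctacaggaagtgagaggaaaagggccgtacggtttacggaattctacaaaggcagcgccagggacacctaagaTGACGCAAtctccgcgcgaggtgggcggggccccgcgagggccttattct
Kifc1 (chr17:33890796-33890883, minus strand): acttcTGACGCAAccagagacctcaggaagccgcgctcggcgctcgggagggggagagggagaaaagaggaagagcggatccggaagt
Klhdc3 (chr17:46680984-46681141, minus strand): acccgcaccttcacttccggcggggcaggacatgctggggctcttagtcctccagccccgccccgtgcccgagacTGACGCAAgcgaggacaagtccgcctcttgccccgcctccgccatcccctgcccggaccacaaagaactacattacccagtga
Ensa (chr3:95624841-95624979, plus strand): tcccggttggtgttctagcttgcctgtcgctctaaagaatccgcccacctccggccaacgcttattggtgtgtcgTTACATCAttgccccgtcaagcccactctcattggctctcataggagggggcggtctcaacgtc

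Bud31, Kifc1 and Klhdc3 held TGACGCAA on the strand of the gene, while Ensa held TGATGTAA, read on the opposite strand. TGACGCAA was thus present in 3 of 7 members, against 0.732% of the 17492 protein-coding genes with a window, a contrast that is not independent because the word was picked from these sequences. TGATGNAA, the word set as the main one, was present in 1 of 7, against 4.13% of genes. The looser TGANGNAA was present in 4 of 7, against 17.5%. TGATGCAA and TGACGTCA were found in none of the 7, and in 1.01% and 2.54% of genes. Strong peaks elsewhere held these words too. Of 42 genes whose window held a summit of at least 20 fragments, some of them pairs that share a peak, 15 held TGACGCAA (35.7%, with Bud31, Kifc1, Klhdc3 and Mea1 among them), 20 held TGATGNAA (47.6%), 32 held TGANGNAA (76.2%), 13 held TGATGCAA (31.0%) and 0 held TGACGTCA. No test was made of these differences, and a match describes letters and not a bound site.

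The 3 copies of TGACGCAA lay close to the peak summits. The summit was 8 bp from the word at Kifc1, 17 bp at Bud31 and 18 bp at Klhdc3. At Ensa the match was 140 bp from the summit. Ppp2r5a and Ran had their summits 372 bp and 423 bp upstream of the start, beyond the 250 bases of the window, and the Ensa summit, 83 bp downstream of the start, lay beyond the 50 bases after it. The sequence under these 3 summits was not analysed here. A summit inside the member's own window was thus found at 3 of 7 members, and those are the 3 with TGACGCAA. Of the 17492 protein-coding genes with a window, 599 had a summit in it, but most genes have no gene-end peak. The share among gene-end peaks is not given, so 3 of 7 has no matched background. TGACGCAA was picked from these windows, and searching only the window keeps word and summit close by construction. The overlap is therefore not read as a link. The Wls window lies 99.8 kb from the Wls summit and does not bear on that peak.

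**Figure D1:**
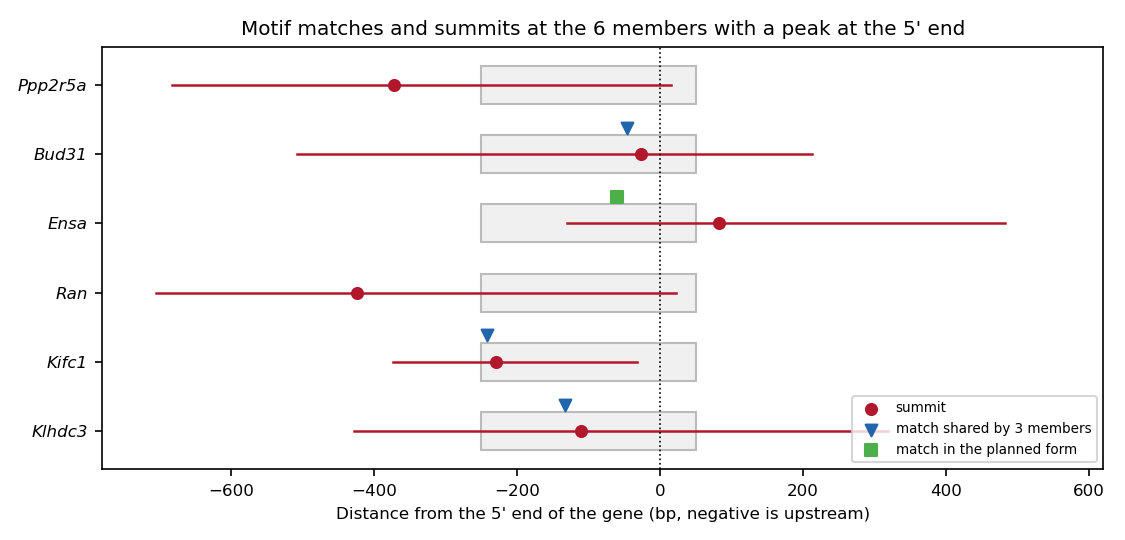
Positions in bp from the 5' end of the gene for the 6 members with a peak there. Grey boxes are the 300-base promoter windows searched, red lines the called peaks, red dots their summits, triangles the word shared by 3 members and the square the planned word. The triangles stand 8 to 18 bp from the summits of Bud31, Kifc1 and Klhdc3, the square stands 140 bp from that of Ensa, and the summits of Ppp2r5a, Ran and Ensa fall outside the boxes.

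The values by which the members were chosen are given as a description. Fold enrichment is the authors' ratio of the signal at the summit to the background estimated by the peak caller. It was 31.0 at Wls, 25.4 at Ppp2r5a, 21.7 at Bud31, 20.8 at Ensa, 19.8 at Ran, 19.0 at Kifc1 and 18.7 at Klhdc3. Eif2s2 (20.8) and Iars (19.6), a subunit of translation initiation factor 2 and the isoleucyl-tRNA synthetase, lay among them and were left out by the rule. Just below Klhdc3 came Tars at 18.4, a threonyl-tRNA synthetase, and then Aldh18a1 (18.0) and Got1 (17.4), enzymes of proline and aspartate metabolism, and Usp2 (17.4), a deubiquitinase. Fold enrichment thus fell in small steps across the end of the list, with no gap at the last member. Over the whole library, 27 peaks (0.343%) had a fold enrichment at or above that of Klhdc3, and Wls was 9th of all peaks.

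The number of fragments stacked at a summit was worked back from its fold enrichment and p in the authors' file. The Wls peak held 115 fragments (exact Poisson 95% interval 94.9 to 138, counting error only). Ppp2r5a held 104 (85.0 to 126), an interval that overlaps that of Wls. Bud31 held 74 (58.1 to 92.9). Those 3 were followed by Klhdc3 with 56 (42.3 to 72.7) and by Ensa and Ran with 50 each (37.1 to 65.9). Kifc1 had the fewest, 38 (26.9 to 52.2). The intervals of Wls and Ppp2r5a lay above those of Klhdc3, Ensa, Ran and Kifc1, whereas the intervals of neighbours in the order overlapped. No test of the differences was made. Members were ordered differently by fragments than by fold enrichment because the estimated background differed. It was 1.05 fragments at Kifc1 and 3.13 at Ppp2r5a. Apart from Wls, with 2.75, the background was higher at members with more fragments. Whether a peak's own fragments entered its background was not tested. The -log10 q ran from 40.6 at Kifc1 to 135 at Wls.

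**Figure D2:**
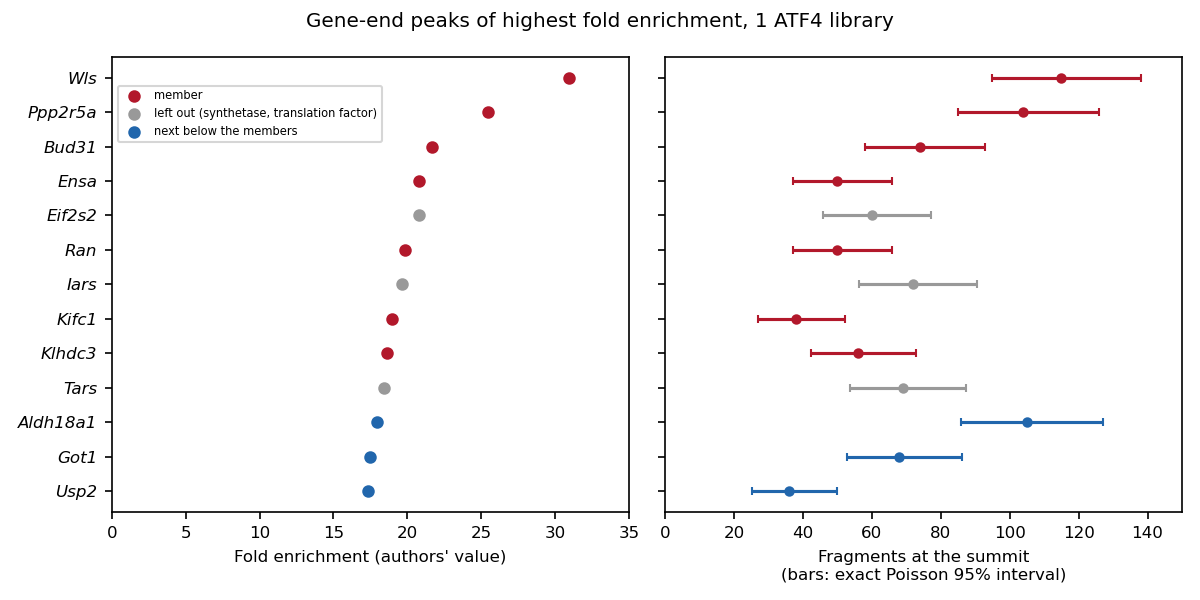
Left, fold enrichment (the authors' ratio); right, fragments at the summit with exact Poisson 95% intervals as bars, for the 7 members (red), the synthetase and translation factor genes left out (grey) and the 3 genes next below (blue), all in 1 ATF4 library. Fold enrichment falls in small steps from Bud31 to Usp2, and Aldh18a1, below the members by fold, has 105 fragments.

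In 6 of the 7 members the peak lay at the 5' end of the gene, where transcription starts. Wls was the exception. Among the 1211 gene-end peaks whose nearest gene has a listed strand, 91.8% were nearer to the 5' end, so 6 of 7 is close to the background. The Wls peak (chr3:159939413-159939624) lay 813 bp beyond the 3' end of the gene and 99.8 kb from its start, across the whole gene of 99.0 kb. No start of another protein-coding gene was listed within 1 kb of it. 88 of the 1211 gene-end peaks (7.27%) had this position.

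The Wls peak was also the narrowest of the tall gene-end peaks. Its width was 212 bp. The widths of the other members were 342 bp at Kifc1, 614 bp at Ensa, 698 bp at Ppp2r5a, 721 bp at Bud31, 729 bp at Ran and 748 bp at Klhdc3. Of the 34 gene-end peaks with at least the 38 fragments of Kifc1, whose median width was 758.5 bp, the Wls peak was the only one of 212 bp or less, and 2, Wls and Kifc1, were 342 bp or less. Its nearest other peak was 2339 kb away, with a fold enrichment of 3.57. No other gene in the table had an end within 10 kb. The peak is thus named after Wls by distance alone.

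**Figure D3:**
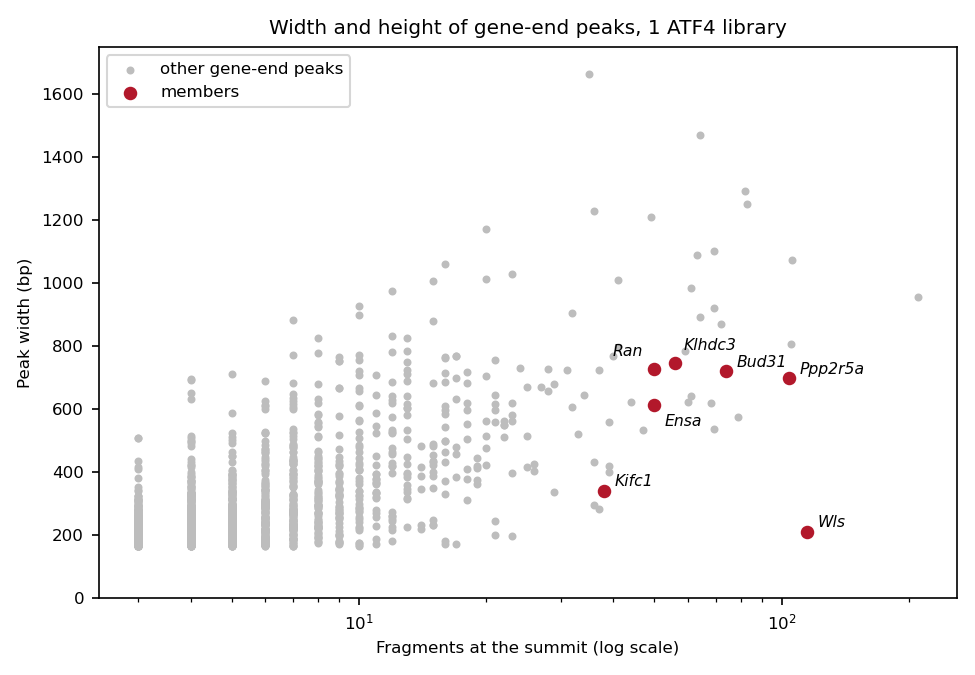
Peak width in bp against the number of fragments at the summit (log scale) for 1527 gene-end peaks of 1 ATF4 library, with members in red. Wls, 115 fragments in 212 bp, stands apart from the other tall peaks, and the remaining members run from 342 to 748 bp.

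Of the members with a peak at the start, Ppp2r5a, the PP2A subunit gene, had the highest fold enrichment. Its peak (chr1:191397026-191397723) had its summit 372 bp upstream of the single listed start and reached across it. The gene, of 45.1 kb on the minus strand, held no further peak, and the nearest one lay 71.4 kb away. Its only neighbour within 10 kb was Rab11b-ps1, a pseudogene inside the gene, 7953 bp from the summit. Ensa encodes the inhibitor of the other, B55 form of PP2A. Its peak (chr3:95624850-95625463) was the only one of the 7 with its summit inside the gene, 83 bp downstream of the start. Ensa is 7.14 kb long, and its neighbours were the pseudogene Rps10-ps1 at 2247 bp and Golph3l, a Golgi protein gene, at 5816 bp. The next peak was 94.4 kb away.

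Ran and Bud31, genes of nuclear transport and splicing, are short genes of 4.17 kb and 7.70 kb. The Ran peak (chr5:129019451-129020179) had its summit 423 bp upstream of the start, the longest distance among the 6, but the peak extended to the start. No other gene had an end within 10 kb of it. The Bud31 peak (chr5:145139868-145140588) lay over a divergent gene pair. Its summit was 26 bp upstream of the first of the 2 listed Bud31 starts and 325 bp from the start of Pdap1, which encodes a phosphoprotein that binds platelet-derived growth factor A and is transcribed the other way. 351 bp separate the starts of these 2 genes, and both lie inside the peak, so the file cannot assign the 74 fragments to either of them. The other neighbour within 10 kb was Ptcd1, a gene of mitochondrial RNA metabolism, with its nearer end 7028 bp from the summit.

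The Klhdc3 peak (chr17:46680611-46681358) lay in the most crowded place. Its summit was 111 bp upstream of the Klhdc3 start and inside the annotated span of Mea1, which is read in the opposite direction. All 5 listed starts of Mea1 lay within 1 kb of the summit, the nearest at 55 bp, closer than the Klhdc3 start. The peak list therefore cannot assign the 56 fragments to either gene. Because the table gives Mea1 a wider span, its gene ends are 2085 bp or more from the summit, and it is not counted as a gene-end neighbour. Mea1 was named here after its position had been seen. The 3' end of Ppp2r5d, another B56 subunit of PP2A, was 1950 bp from the summit, and its starts 24.0 kb away. The copy of TGACGCAA at this summit lies 136 bp upstream of the Klhdc3 start and 62 bp upstream of a Mea1 start.

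By gene ends, Bud31 was the only member that shared its summit, at a distance of up to 1 kb, with the end of another protein-coding gene. That is 1 of 7, against 19.6% of the 1527 gene-end peaks. By listed starts there were 2 of 7, Bud31 and Klhdc3. No share over all gene-end peaks is given by listed starts, so this count has no background beside it.

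Kifc1 had a peak (chr17:33890665-33891006) with the summit 230 bp upstream of the start, and the peak ended before the start. Smim40, a small membrane protein gene, had its nearer end 2343 bp from the summit. The microRNA gene Gm27740 lies within Kifc1 at 4130 bp. The gene has a close copy, Kifc5b, 6.97 Mb away on the same chromosome. Kifc5b had a gene-end peak of its own (chr17:26916810-26917148), with a fold enrichment of 15.9, 29 fragments (19.4 to 41.6) and a width of 339 bp. Its summit lay 179 bp from its start, and TGACGCAA was present 207 bp upstream of that start, 21 bp from the summit. The promoter windows of both genes were identical at 245 of 272 aligned bases (90.1%, with 56 gap positions). Whether fragments of one copy were mapped to the other was not tested, and the values of both peaks are uncertain for this reason.

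**Figure D4:**
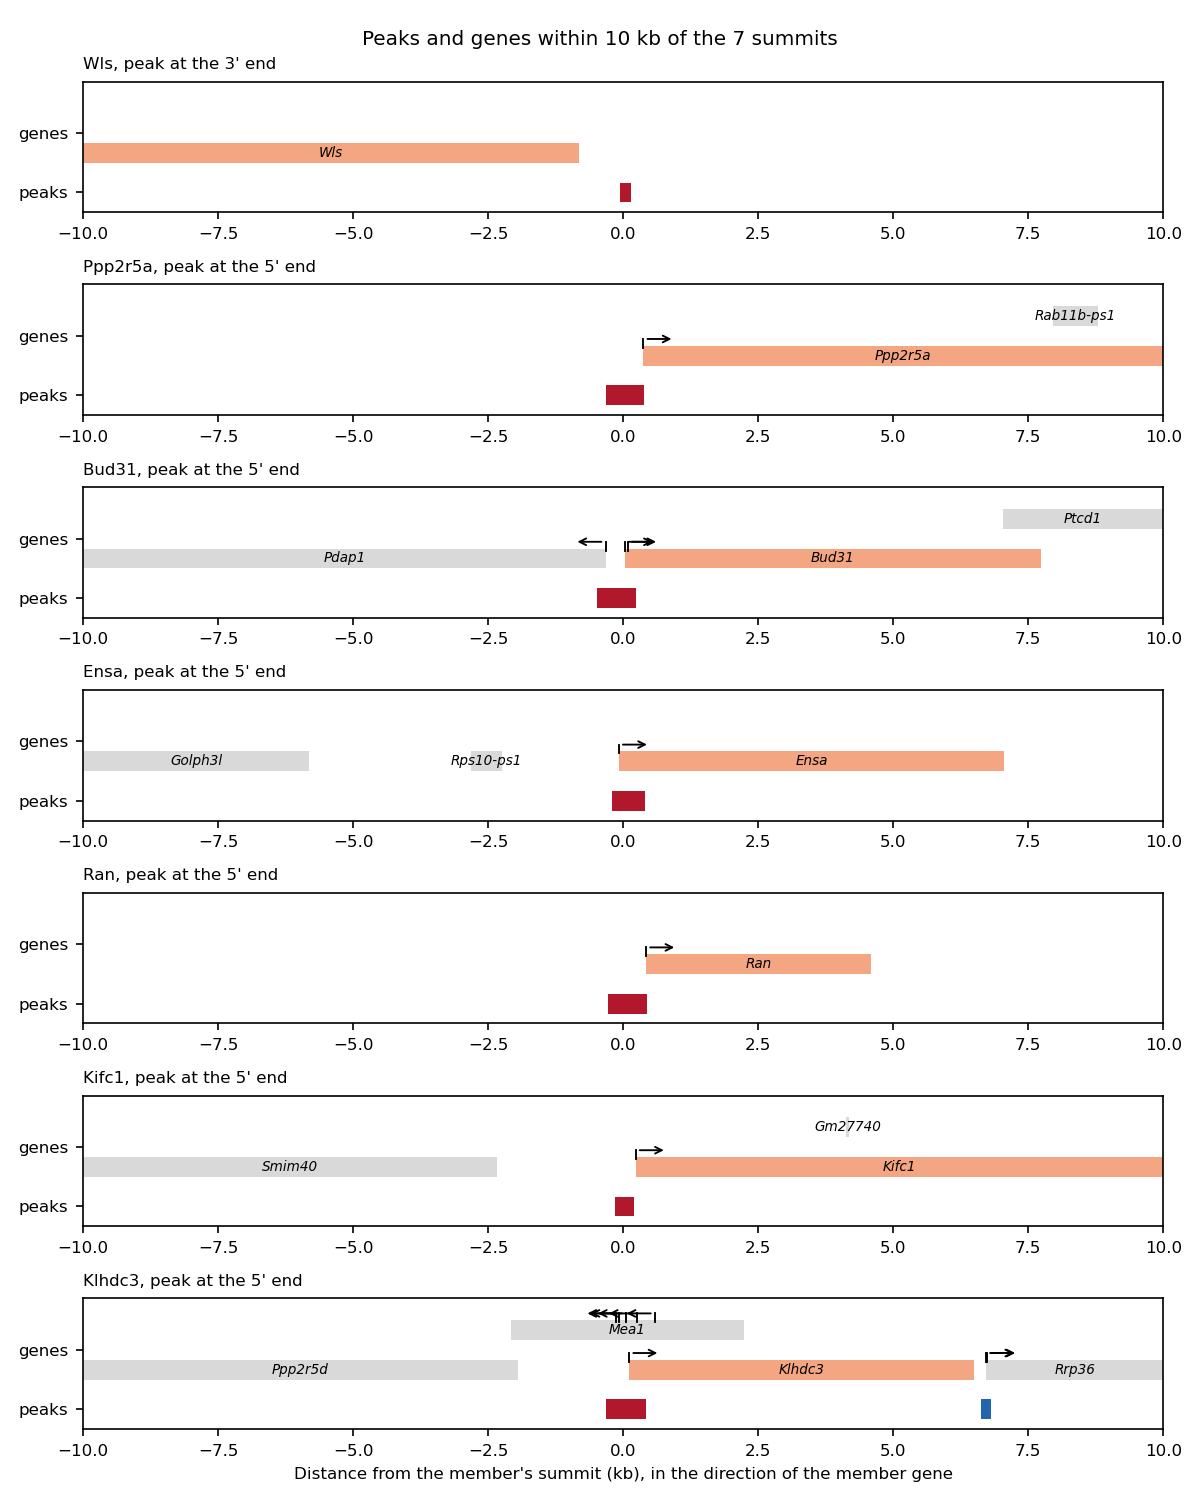
Called peaks (red, the member's peak; blue, a further peak) and genes (orange, the member; grey, neighbours; arrows, listed starts and their direction) within 10 kb of the 7 summits, in kb from the summit and turned so that each member reads from left to right. Only Klhdc3 has a second peak in view, 6.69 kb away, and only at Wls does the peak follow the gene.

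Klhdc3 was the only member with a further peak within 10 kb of its summit. That is 1 of 7, close to the 11.7% of all gene-end peaks. That peak (chr17:46674240-46674416) lay 6.69 kb away, 201 bp outside the 3' end of Klhdc3 and 23 bp from the 5' end of Rrp36, a gene of ribosomal RNA processing. It was weak, with a fold enrichment of 5.64, a -log10 q of 4.35 and 6 fragments (2.20 to 13.1). The next nearest was a peak of 7 fragments 18.7 kb from the Kifc1 summit and 134 bp from an end of Daxx, a histone H3.3 chaperone gene, which is named here after its value was seen. At the other members the nearest peak was at least 31.6 kb away. No member gene held a further peak in its body. No share over all genes is given for this count. Of the genes ranked beside the members, Eif2s2 and Iars held 1 such peak each, and Tars, Aldh18a1, Got1 and Usp2 held none.

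Partner genes from the same processes were taken from 7 lists written from general knowledge, one for each member. A gene-end peak was present at 29 of 168 partners (17.3%, members left out), against 8.13% of all protein-coding genes. A gene-end peak of 20 or more fragments was present at 2 of 168 (1.19%), Xpot and Kifc5b, against 0.42% of all protein-coding genes. Kifc5b is the close copy of Kifc1 whose value is uncertain, and without it the count was 1 of 167 (0.599%). With peaks of 6 or more fragments the share was 10 of 168 (5.95%, against 3.74% of all genes).

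The counts in each list were small, and no test of differences between lists was made. The share with a gene-end peak was 33.3% for CUL2 ligases, 26.7% for Ran transport, 25.0% for mitotic entry and 22.7% for PP2A. It was 15.0% for kinesins, 7.14% for Wnt secretion and 0% for splicing, against 8.13% of all protein-coding genes. With lists this short, no share is read as a difference. Of 30 genes of Ran-dependent transport, 8 had a gene-end peak. Xpot, the exportin that carries tRNA out of the nucleus with Ran, had a fold enrichment of 15.1 and 32 fragments (21.9 to 45.2), 116 bp from a listed start. Tnpo2, Cse1l and Xpo1, other carriers, had 6, 5 and 6 fragments. Of 40 other kinesins, 6 had a peak. After Kifc5b these were led by the neuronal motor gene Kif21b with a fold enrichment of 7.88 and 19 fragments (11.4 to 29.7), and by Kif1a with 7 fragments, a motor of synaptic vesicle precursors. Kif23 was at 5 fragments.

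Of 15 other CUL2 ligase genes, 5 had a peak. Klhdc10, a kelch-domain receptor like Klhdc3, had a fold enrichment of 12.6 and 19 fragments (11.4 to 29.7). The receptors Fem1c and Fem1a had 13 and 8 fragments, and the receptor Vhl had 4. Of 22 PP2A genes, 5 had a peak, led by the methylesterase gene Ppme1 with 6 fragments. The B56 gene Ppp2r5b had 4, and Ppp2r2a and Strn3, which encode other regulatory subunits, had 3 each. Ppp2r5d had no gene-end peak. Of 12 genes around Greatwall and mitotic entry, the kinase genes Wee1 and Cdk1 had 5 and 3 fragments and the phosphatase gene Cdc25c had 3. Of 28 genes of Wnt ligands and their secretion, Vps35 and Tmed10, trafficking genes, had 5 and 4 fragments, and no Wnt gene had a gene-end peak. None of 21 spliceosome partners of Bud31 had one. A count of 3 fragments has an interval of 0.619 to 8.77.

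**Figure D5:**
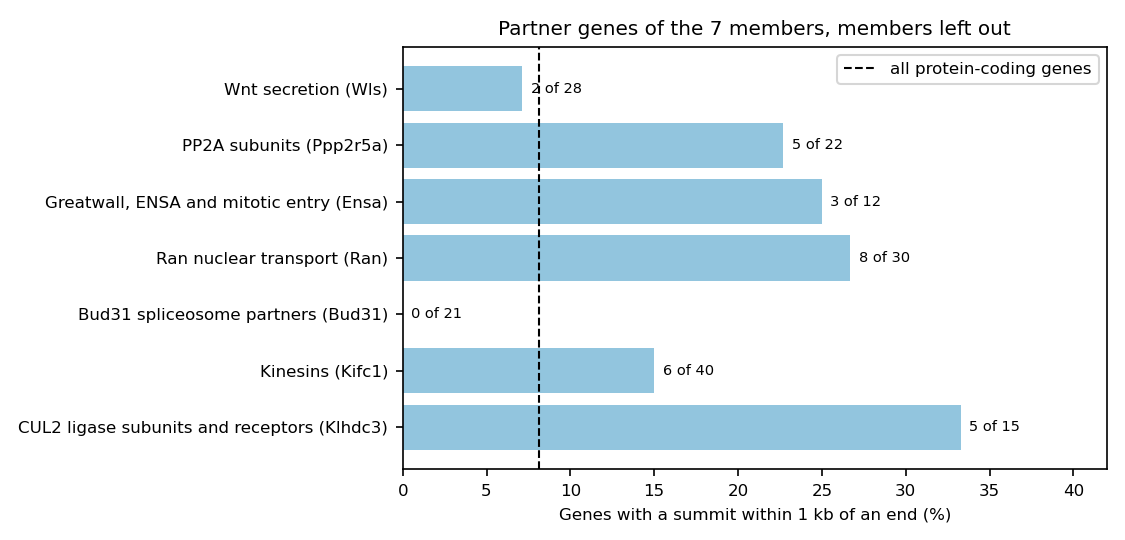
Percent of genes with a summit within 1 kb of an end in the 7 partner lists (bars, with counts; the member of each list, in brackets, left out). The dashed line is the 8.13% of all protein-coding genes, and the bars run from 0 of 21 genes for Bud31 to 5 of 15 for Klhdc3.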

How the data were processed

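CUT&Tag peaks of 1 ATF4 library from primary mouse neurons were analysed; with no processed file of the IgG library and no replicate, no test between conditions was made. The submitters' processing notes name FastQC, BWA, MACS2 2.1.2, deepTools and the build mm10; the peak-calling threshold and the role of IgG are not given in the sources used here. For each peak the authors deposited a fold enrichment, which is a ratio, a p-value and a q-value on the −log10 scale, and a score. The score was 10 times the −log10 q without its decimals in each of the 7873 peaks. Positions and summit offsets are the deposited ones, written from 1.

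Fragments n and background b were solved from fold = (n + 1)/(b + 1) and a Poisson upper tail, and the solution came within 0.001 of the −log10 p in 7873 peaks. Intervals are exact Poisson (95%) and hold for counting error alone, because copies made by PCR are not independent. The total depth was not used here. The solving and the motif search were tested on simulated data. Gene ends, names and promoter windows came from RefSeq GRCm38.p6, the same assembly as mm10. It lists a start for 17492 protein-coding genes.

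For the ranking, each peak was given to the nearest protein-coding gene end; counts of genes with a gene-end peak take every gene with an end within 1 kb of a summit. Named genes were the members, genes with an end within 1 kb of a member summit, the nearest genes of further peaks within 10 kb, genes left out by the rule, the 3 next below, and up to 4 partners a list. Other genes with an end within 10 kb of a member summit, Mea1, Daxx, Ppp2r5d and the genes of the closing section were named after their positions or values were seen. Of the partner genes, 1 of the CUL2 list was not in the table. Members and lists were chosen with earlier results of these data known. Alternatives changed the window, ranking, peak threshold, distance and motif. Figures were drawn with matplotlib 3.10.9, and values computed with scipy 1.17.1, pandas 2.3.3 and numpy 2.4.6 under Python 3.11.15.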

Additional observations from a re-analysis of the deposited data

How the results depend on the processing

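Membership depended on ranking by fold enrichment. With -log10 q, 3 of the 7 members were among the 7 highest genes, and with fragments 2 were, Wls and Ppp2r5a, beside Ppp1r15b, Herpud1, Aldh18a1, H4c14 and Slc1a4. A 500 bp window, which drops Wls, or a 3000 bp window kept 6, overlap kept 7, and keeping synthetases and translation factors left 5. Members with another gene end within 3000 bp were 3, and by listed starts, an alternative added after the data were seen, 2, against 1 as reported. A further peak was found at 0 members within 5 kb, at 2 within 20 kb and at 0 when peaks needed a -log10 q of 5 or more, in place of 1. No shares over all gene-end peaks are given for these alternative counts of shared ends and further peaks. The motif count was 0 for TGATGCAA and TGACGTCA, 4 for TGANGNAA and 3 for TGACGCAA, the last chosen after the sequences were seen, against 1. Partner genes with a peak were 7 of 168 (4.17%, against 2.74% of all protein-coding genes) when the -log10 q had to reach 5 and 10 (5.95%, against 3.74%) with 6 or more fragments, against 29 as reported (17.3%, against 8.13%). Leaving out Kifc5b, added after the data were seen, gave 28 of 167 (16.8%). Without the 1 added in the fold formula, 1 member was solved within 0.001, against 7. No paired analysis was possible because each antibody has 1 library. Low counts limit the values of the partner genes.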

Other observations

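TGACGCAA was followed beyond the members, after it had been noticed in them. A promoter window with both this word and a summit was found at 41 protein-coding genes, which share 37 peaks. They are 6.84% of the 599 genes with a summit in the window, and 128 genes held the word in all. In 23 of the 37 peaks the word lay within 50 bp of the summit, with a median of 45.0 bp; the 300-base window keeps both close by construction. After the 3 members and Mea1, the highest fold enrichments among these genes were those of Plekhh3 at 16.4 with 79 fragments, Kifc5b at 15.9 with 29, and Herpud1, an endoplasmic reticulum stress gene, at 15.4 with 106. The word was 7 bp, 21 bp and 32 bp from their summits. Knl1, a kinetochore gene, followed at 14.9 with 34 fragments and 52 bp.

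The members' promoter windows differed in base composition. The 250 bases before the start were 81.6% G and C at Ran, with 49 CpG dinucleotides, and 52.0% at Ensa, with 9. The median was 55.6% and 10 over 21263 protein-coding windows. All members but Ensa lay above the median G and C. Ppp2r5a had 70.4%, Klhdc3 65.6%, Kifc1 64.8%, and Bud31 61.2% and 60.4% at its 2 starts. Wls had 58.0%, in a window that does not bear on its peak.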
